A study of Saccharomyces cerevisiae with 44 samples.

Results

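The proteasome is the protease complex that degrades ubiquitin-tagged proteins, and the genes described here are those of its subunits, of the chaperone Ump1 and of the transcription factor Rpn4 in budding yeast, Saccharomyces cerevisiae. They were taken by systematic name and are 34 of the 6692 features counted. The core particle has 14 of them, 7 for the outer alpha rings and 7 for the inner beta rings that hold the proteolytic sites. The regulatory particle has 18, namely 10 for the base, which holds the ATPases that unfold the substrate, and 8 for the lid, which removes ubiquitin. The last 2 are UMP1 and RPN4. SEM1, a further gene of the lid, is not among the 34 and is listed with the cofactors below. All 34 passed the filter on low counts, so that 34 of the 6344 genes tested are described. All 22 cultures were of the wild-type laboratory strain W303.

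Each inhibitor of DNA replication was compared with its own vehicle, in cultures harvested at the time point that the labels give as that of the IC50. HU (the usual abbreviation of hydroxyurea) at 50 mM and MMS (methyl methanesulfonate) at 0.002% were compared with water in the rich medium YEPD, the group C0. CPT (camptothecin) at 100 µg/mL was compared with 1 N NaOH in YEPD, CC. For AD, given at 50 µg/mL in the synthetic medium SC, the vehicle was 2% acetone, CA. DOX (doxorubicin) at 25 µg/mL was compared with water in SC, CD, and MTX (methotrexate) at 150 µg/mL with 0.1 N NaOH in SC, CM. The labels give the abbreviations only and do not spell out AD. Each of the 11 groups had 2 cultures with 2 technical replicates each, whose counts were summed. Library totals ran from 6.82 to 15.08 M counts, and those of DOX, at 8.07 to 8.91 M, lay below the 10.79 to 12.9 M of CD. The median log2 fold change over all genes tested lay between -0.03 and 0.02 in every comparison. Levels are in CPM, counts scaled to a common library total, and the test is edgeR's quasi-likelihood test with Benjamini-Hochberg adjustment over the 6344 genes. A gene is said to have risen or fallen where its adjusted p was under 0.05. In bulk cultures, a lower level per cell and fewer cells that express a gene cannot be told apart.

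Rpn4 is a short-lived activator of the proteasome genes that the proteasome itself degrades, so that its protein is known to build up when proteolysis is impaired. It binds a promoter sequence called the proteasome-associated control element (PACE), GGTGGCAAA. The letters were searched on both strands from 250 bases before to 50 bases after the start codon of each gene, in the RefSeq R64 genome, which is the sacCer3 build of the deposited tables. They were found in 71 of 5980 such windows, or 1.19%, and in 27 of the 34 genes, 12 of the core and 15 of the regulatory particle. The genes PRE5, PUP1, RPN8, RPN10, RPN13, UMP1 and RPN4 itself had no exact match in this window. The match began 84 to 183 bases before the start codon, with a median of 120, and read in the direction of the gene in 19 of the 27 genes. The sequences below are windows of 30 bases, each read on the strand given, with the PACE letters in capitals. They show the 4 subunits that hold the letters and rose most with DOX, 3 subunits that rose with MMS, CPT, DOX and MTX, and the 2 subunits that hold the letters and did not pass the test with DOX. UBA1, CDC48 and ECM29, which are not subunits, are described with the ubiquitin genes.
RPN1 (sacCer3 chrVIII:164837-164866, minus strand): tgtgttttacGGTGGCAAAaggcgagcacg
PRE7 (sacCer3 chrII:141150-141179, plus strand): aaactcaaagGGTGGCAAAaacaagcggta
RPN2 (sacCer3 chrIX:220800-220829, minus strand): atttattttcGGTGGCAAAactggatacat
RPT5 (sacCer3 chrXV:544855-544884, plus strand): gccaatatgtGGTGGCAAAaatgaattaat
SCL1 (sacCer3 chrVII:475337-475366, plus strand): ctatccttacGGTGGCAAAttggtgtgtgc
PRE1 (sacCer3 chrV:177683-177712, plus strand): aaatctttacGGTGGCAAAaaataaagaaa
RPN12 (sacCer3 chrVI:252397-252426, minus strand): aatttcaatgGGTGGCAAAtaatgtgtaga
PUP3 (sacCer3 chrV:349510-349539, minus strand): tggcactgccGGTGGCAAAaaagtgcaaat
RPN11 (sacCer3 chrVI:153259-153288, plus strand): ggacctccaaGGTGGCAAAttcacaagaaa
UBA1 (sacCer3 chrXI:39024-39053, plus strand): aaaaggtgcgGGTGGCAAAtaaaggtaaaa
CDC48 (sacCer3 chrIV:238786-238815, minus strand): atgtgaattcGGTGGCAAAaaaggacatat
ECM29 (sacCer3 chrVIII:39943-39972, plus strand): gccttttcttGGTGGCAAAaaaaaggtact
The base after the match was A or T in 26 of the 27 genes, and in 33 of the 44 other genes that hold the letters. Among the flanking bases shown, it was the one with the most A or T in the 27 genes. Some of the 44 share their site with a subunit or with each other, so the counts are not of separate sites, and no test was made.

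The subunits were among the more abundant transcripts, but not at 1 level. Per kilobase of coding length and averaged over the 5 vehicles, the 32 subunits ran from 38.5 to 486 CPM with a median of 310, against a median of 55.7 over all genes tested. The order from the highest was PUP3 (486 CPM per kilobase), PRE2 (449), PRE10 (437), RPN3 (417), PUP2 (401), RPN8 (391), RPN7 (388), RPN2 (383), RPT1 (368), RPT5 (366), RPN5 (366), RPT2 (344), RPN1 (333), RPN13 (329), PRE3 (327), RPN11 (312), RPT3 (307), RPT4 (296), PRE9 (296), RPT6 (265), RPN9 (252), PRE7 (244), PRE4 (228), PRE6 (209), PUP1 (176), RPN10 (174) and PRE8 (137). RPN4 stood at 136 CPM per kilobase and RPN6 at 130. At the low end were 5 genes, PRE5 (73.3), PRE1 (70.3), SCL1 (69.4), RPN12 (38.5) and UMP1 (38.3). The highest subunit was 12.6 times the lowest. Reads were counted per coding feature after the authors' processing, so levels compared between genes also hold whatever mapping and read removal did to each gene.

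DOX raised nearly the whole set. Of the 34 genes 30 rose, 13 of the 14 of the core particle, 16 of the 18 of the regulatory particle and UMP1, and RPN4 fell, while 21.0% of all genes tested rose and 20.2% fell. The summed level of the 32 subunits went from 11295 ± 155 CPM (SD, n = 2) in CD to 20302 ± 263 CPM in DOX, a ratio of 1.8, and the subunits took 2.03% of the counts in DOX. The median log2 fold change was 0.82 for the core and 0.76 for the regulatory particle, beside -0.02 for all genes tested. The DOX libraries were shallower than those of CD, and genes of 200 to 400 CPM per kilobase, the range of most subunits, had a median of 0.01 in the same comparison (n = 604).

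RPN1 (YHR027C, sacCer3 chromosome VIII, 161730 to 164711), a scaffold of the base that binds ubiquitin receptors and the deubiquitinase Ubp6, rose most. Its cultures stood at 1040 and 1033 CPM in CD and at 2960 and 2872 CPM in DOX, which is 1.49 on the log2 scale (SE 0.10; edgeR adjusted p = 3.45e-08). The other 20 cultures all stood between 927 and 1292 CPM, so that RPN1 was far above its whole range elsewhere with DOX. RPN2 (YIL075C, chromosome IX, 217863 to 220700), the related scaffold that contacts Rpn13, had 1139 and 1200 CPM in CD and 2418 and 2469 CPM in DOX (1.06, SE 0.13; edgeR adjusted p = 1.9e-05). PRE7 (YBL041W, chromosome II, 141247 to 141972), a beta-ring subunit without proteolytic activity, had 170 and 171 CPM in CD and 375 and 407 CPM in DOX (1.19, SE 0.13; edgeR adjusted p = 5.02e-06). PUP1 (YOR157C, chromosome XV, 630966 to 631751), the subunit of the trypsin-like site, went from 133 and 129 to 268 and 254 CPM (0.99, SE 0.11; edgeR adjusted p = 6.93e-06). RPT5, an ATPase of the base, went from 517 and 492 to 1026 and 959 CPM (0.98, SE 0.10; edgeR adjusted p = 5.07e-06). In each of these the DOX cultures lay above both CD cultures. UMP1 (YBR173C, chromosome II, 581726 to 582172), the chaperone of core particle assembly, went from 18.1 and 14.8 to 36.7 and 40.5 CPM (1.23, SE 0.17; edgeR adjusted p = 4.2e-05).

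The other 24 genes that rose with DOX had log2 fold changes between 0.57 (RPN10) and 0.97 (SCL1 and PRE8). They were SCL1, PRE8, PRE9, PRE6, PUP2, PRE5 and PRE10 of the alpha rings, PRE3, PRE1, PRE2 and PRE4 of the beta rings, RPT1, RPT2, RPT3, RPT4, RPT6 and RPN10 of the base, and RPN3, RPN5, RPN6, RPN7, RPN8, RPN9 and RPN12 of the lid. PRE3 and PRE2 carry the caspase-like and the chymotrypsin-like site, and rose by 0.77 (SE 0.14) and 0.82 (SE 0.10). Of the subunits in the set, 3 did not pass the test. PUP3 (YER094C), a beta-ring subunit, had 346 and 339 CPM in CD and 415 and 377 CPM in DOX (0.21, SE 0.11). RPN11 (YFR004W), the deubiquitinase of the lid, had 309 and 337 against 332 and 356 CPM (0.09, SE 0.14), and the groups overlapped. RPN13 (YLR421C), a ubiquitin receptor of the base, had 160 CPM in both CD cultures and 163 and 158 CPM in DOX (0.01, SE 0.11). RPN13 was between 131 and 174 CPM in all 22 cultures. With any 1 culture of CD or DOX left out, 28 to 30 of the 34 genes were called; RPT4, RPN10 and RPN4 were the called genes lost in at least 1 of those fits.

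**Figure D1:**
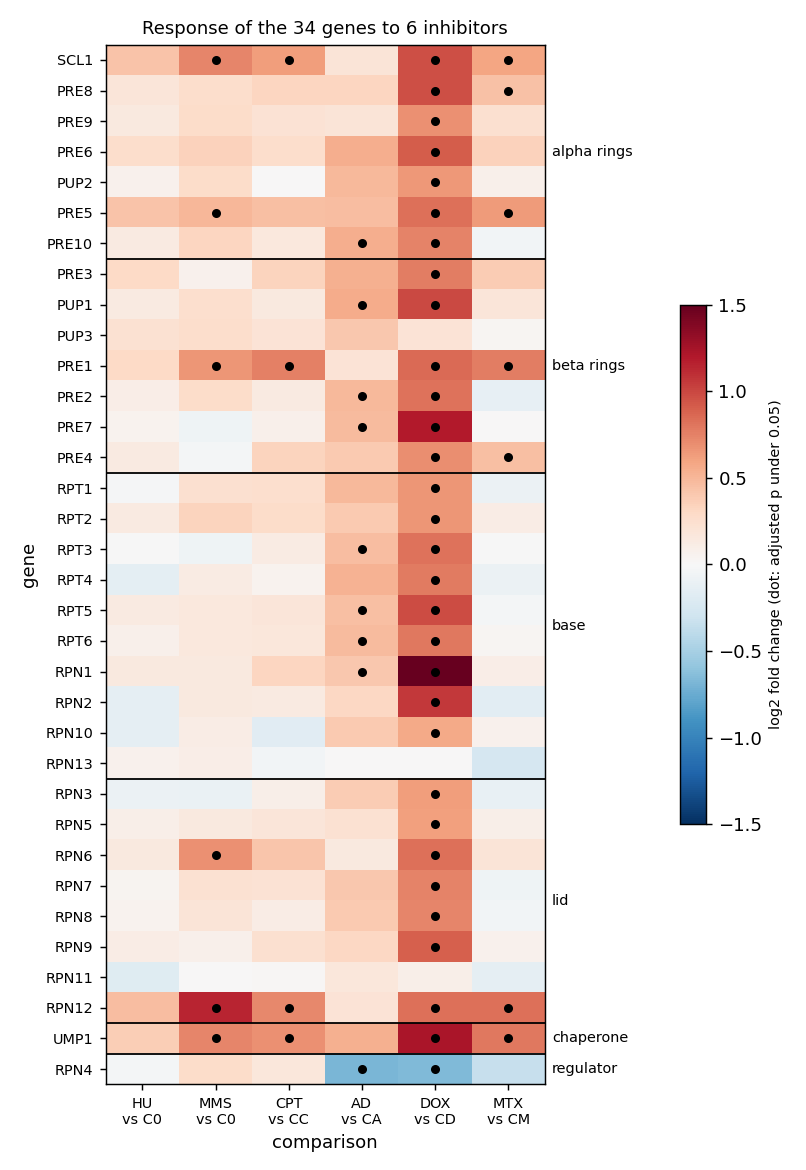
Log2 fold changes (colour) of the 34 genes (rows, by particle) for each inhibitor against its vehicle (columns), with a dot where the adjusted p was under 0.05. DOX has 31 dots, HU has 0, and RPN4 is blue with AD and DOX.

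Genes with and without the PACE letters rose with DOX. Of the 27 genes that hold them 25 rose, with a median of 0.79, and of the 5 subunits that do not 4 rose, with a median of 0.73. Of the 3 subunits that were not called, PUP3 and RPN11 hold the letters and RPN13 does not. UMP1 and PUP1, among the largest rises, had no exact match. Only the exact letters were searched. PUP1, PRE5 and RPN8 hold agtggcaaa and RPN13 ggtggcgaa, as does RPN10 on the other strand, each with a single base changed. Subunits without an exact match are thus not shown to lack a site for Rpn4, and binding was not tested. How many of all windows hold the letters with a single base changed was not counted, so these matches have no background share beside them. Of the 44 other genes with the letters 24 rose and 6 fell with DOX, beside 21.0% and 20.2% of all genes tested. With AD 7 rose, beside 2.02%. With MMS 5 rose and 1 fell, beside 6.07% and 4.7%. With CPT 3 rose, beside 1.91%, and with MTX 4 rose and 3 fell, beside 10.8% and 9.0%. With HU 0 were called, beside 2.63% that rose and 0.93% that fell. In 7 pairs the window of a subunit is shared with a divergent neighbour that then also holds the letters. SCL1 and MPO1, with 297 bases between them, rose by 0.97 (SE 0.14) and 1.31 (SE 0.23), and PRE6 and YOL038C-A by 0.91 (SE 0.19) and 1.51 (SE 0.22). RPT6 rose by 0.79 (SE 0.12), and its neighbour ALG13, 265 bases away, stood at 0.21 (SE 0.25). RPN7 rose by 0.74 (SE 0.11), and YTH1, 389 bases away, stood at 0.19 (SE 0.13). GCD1 (0.24), NOP14 (0.11) and YPI1 (0.44), beside RPT4, RPN5 and RPN11, were not called either.

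**Figure D2:**
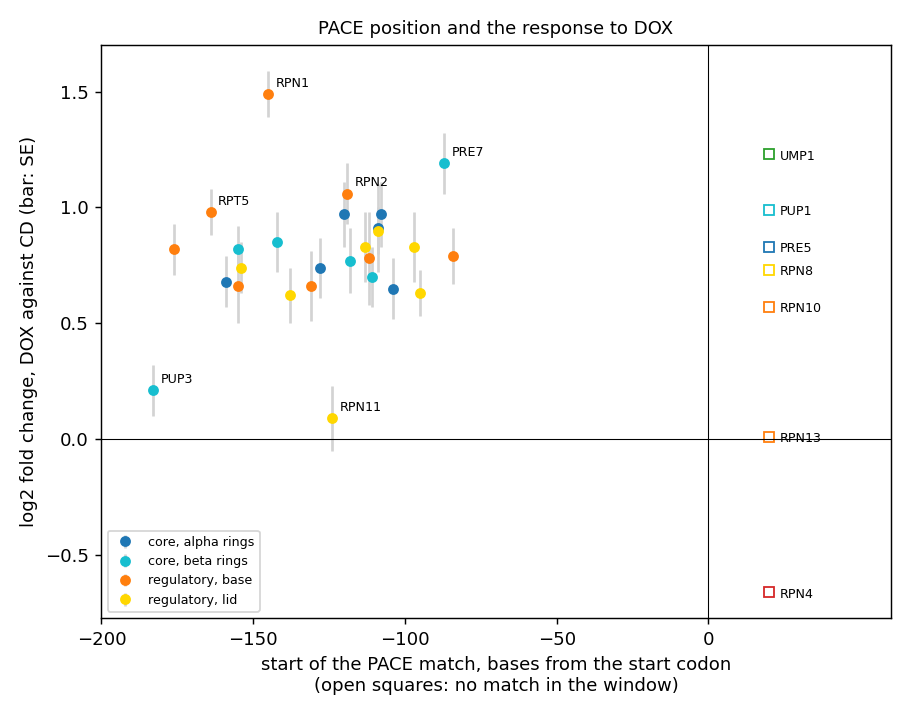
Log2 fold change with DOX (vertical axis, bars are SE) against the start of the PACE match in bases from the start codon (horizontal axis) for the 27 genes with a match, and as open squares the 7 without. PUP3, whose match at 183 bases lies farthest from the start codon, and RPN11 sit below the other filled points.

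With AD 8 of the 34 genes rose and RPN4 fell, and 25 did not pass the test, beside 2.02% of all genes tested that rose and 1.12% that fell. All 32 subunits had a log2 fold change above 0, with a median of 0.40 against -0.01 for all genes tested, and 23 of the 32 had an unadjusted p under 0.05. The summed level was 10480 ± 987 CPM (SD, n = 2) in CA and 13764 ± 645 CPM in AD, a ratio of 1.31. Genes of 200 to 400 CPM per kilobase had a median of 0.13 in this comparison. PUP1 had 118 and 109 CPM in CA and 161 and 174 CPM in AD (0.56, SE 0.11; edgeR adjusted p = 0.0116). PRE10, an alpha-ring subunit, had 400 and 336 against 528 and 543 CPM (0.54, SE 0.13), and PRE2 391 and 362 against 525 and 533 CPM (0.49, SE 0.10). PRE7 (0.48, SE 0.13), RPT6 (0.47, SE 0.12) and RPT3 (0.46, SE 0.11) followed, and RPT5 (0.45) and RPN1 (0.40) completed the 8. The AD cultures lay above both CA cultures in each of them. UMP1 missed the threshold (0.53, SE 0.17; edgeR adjusted p = 0.0913). The count of 9 genes called rests on few cultures. It was 0 without culture 2 of CA or without culture 2 of AD, 1 without culture 1 of CA, 5 without culture 1 of AD, and 0 where CA and AD were fitted alone, while DESeq2 called 17 and the fit with a replicate block 18. None of the 9 was called in all 4 fits without 1 culture.

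The responses to AD and DOX differed in size. In the test of the difference, which compares each inhibitor with its own vehicle in the same medium, 7 subunits rose less with AD and none rose more, beside 5.28% of all genes tested that differed in either direction. RPN1 differed by -1.09 (SE 0.13; edgeR adjusted p = 0.000287). The others were SCL1 (-0.79), RPN2 (-0.75), PRE7 (-0.72), PRE1 (-0.64), RPN9 (-0.58) and RPT5 (-0.52). The vehicles of SCL1 also stood apart, at 62.0 and 55.0 CPM in CA and 44.6 and 42.8 CPM in CD, though that difference was not called. The median difference over the 34 genes was -0.35. The 7 fell to 1, RPN1, when culture 1 of CA, culture 1 of AD or any culture of CD or DOX was left out, and to 4 without culture 2 of AD. For RPN4 the difference was -0.01 (SE 0.24).

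RPN4 (YDL020C, chromosome IV, 415113 to 416708) went the other way from the subunits with AD and DOX. Its cultures stood at 200 and 183 CPM in CD and at 113 and 129 CPM in DOX (-0.66, SE 0.17; edgeR adjusted p = 0.00622), and at 218 and 208 CPM in CA and 144 and 122 CPM in AD (-0.68, SE 0.17; edgeR adjusted p = 0.0432). Both pairs were apart. The DOX call was lost without culture 1 of CD or without culture 1 of DOX, with an adjusted p of at most 0.0648 in the edgeR fits, and the AD call without either CA culture or without culture 2 of AD, with log2 fold changes between -0.82 and -0.55. With MTX it had 186 and 185 CPM in CM and 146 and 148 CPM (-0.34, SE 0.17), which was not called. In YEPD, RPN4 had 327 and 225 CPM in C0, 287 and 255 in HU, 350 and 320 in MMS, 250 and 196 in CC and 283 and 218 in CPT, none called. From the highest, the group means were MMS, C0, HU, CPT, CC, CA, CD, CM, MTX, AD and DOX. In that order each of the first 5 groups overlapped the next, and CA and CD, CM and MTX, and MTX and AD did not overlap, while in SC the 3 vehicles lay above the 3 inhibitors. The counts measure the RPN4 transcript, and the protein was not measured.

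**Figure D3:**
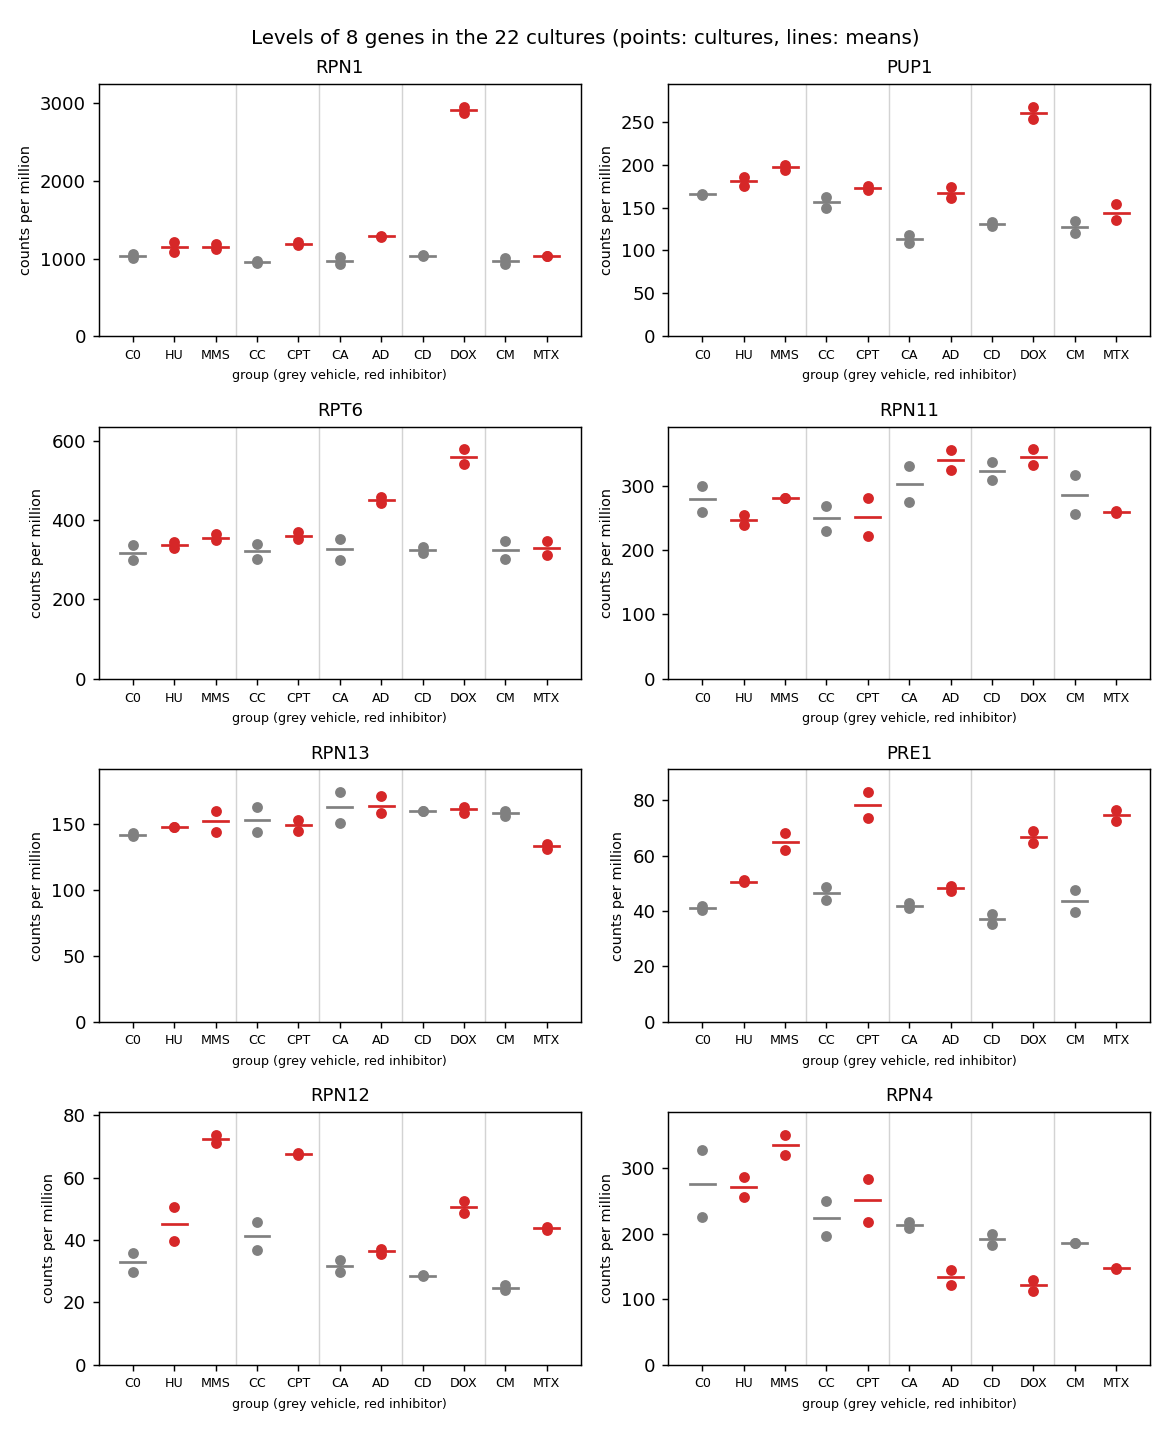
CPM (vertical axes from 0) of 8 genes in the 22 cultures (points) with the mean of each group (lines), vehicles in grey and inhibitors in red. RPN1 is between 927 and 1292 CPM in every group but DOX, and RPN4 is lower with AD, DOX and MTX than in their vehicles.

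A minority of the set passed the test with MMS, CPT and MTX. With MMS 6 of the 34 rose and none fell, beside 6.07% of all genes that rose and 4.7% that fell. With CPT 4 rose and none fell, beside 1.91% and 0.898%. With MTX 7 rose and none fell, beside 10.8% and 9.0%. The median over the 34 genes was 0.23 with MMS, 0.20 with CPT and 0.06 with MTX. Of the 34, 30 had a log2 fold change above 0 with MMS, 32 with CPT and 20 with MTX, and 12, 11 and 10 had an unadjusted p under 0.05. SCL1, PRE1, RPN12 and UMP1 were called in all 3, which is 4 of 6, 4 of 4 and 4 of 7 of the genes called. The 3 comparisons have separate vehicles and share no culture.

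RPN12 (YFR052W, chromosome VI, 252505 to 253329), the lid subunit that is added last to the lid, had 29.8 and 35.9 CPM in C0 and 71.1 and 73.6 CPM in MMS (1.14, SE 0.15; edgeR adjusted p = 9.34e-05). With CPT it stood at 67.1 and 68 CPM, against 45.7 and 36.7 CPM for its vehicle CC (0.72, SE 0.15; edgeR adjusted p = 0.0146), and 23.9 and 25.4 CPM in CM and 43.2 and 44.2 CPM in MTX (0.83, SE 0.15; edgeR adjusted p = 0.00153). No pair of groups overlapped. PRE1 (YER012W, chromosome V, 177835 to 178431), a beta-ring subunit, had 41.8 and 40.5 CPM in C0 and 68 and 62.1 CPM in MMS (0.66, SE 0.13; edgeR adjusted p = 0.00257). With CPT it stood at 73.7 and 82.8 CPM, against 43.8 and 48.8 CPM for CC (0.76, SE 0.13; edgeR adjusted p = 0.00381), and 47.5 and 39.7 CPM in CM and 76.5 and 72.5 CPM in MTX (0.77, SE 0.13; edgeR adjusted p = 0.00077). PRE1 was the gene called in every fit that left out 1 culture in all 3 comparisons.

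SCL1 (YGL011C, chromosome VII, 474489 to 475247), an alpha-ring subunit, rose by 0.73 (SE 0.14) with MMS, 0.63 (SE 0.14) with CPT and 0.59 (SE 0.14) with MTX on the log2 scale. UMP1 went from 16.3 and 16.8 CPM in C0 to 25.1 and 29.7 CPM in MMS (0.73, SE 0.17), from 20.2 and 17.3 CPM with the vehicle CC to 31.8 and 28.6 CPM in CPT (0.69, SE 0.17), and from 16.8 and 17.6 CPM in CM to 26.4 and 33.2 CPM in MTX (0.79, SE 0.17). With 1 culture left out, SCL1 was called in 4 of 4 fits with MMS, 0 of 4 with CPT and 2 of 4 with MTX, and UMP1 in 2, 0 and 3 of 4. MMS also raised RPN6 (0.69, SE 0.15), a lid subunit that contacts the core, and PRE5 (0.50, SE 0.13), an alpha-ring subunit. MTX also raised PRE5 (0.64, SE 0.13), PRE4 (0.45, SE 0.13), a beta-ring subunit, and PRE8 (0.44, SE 0.14), an alpha-ring subunit. Without 1 culture, 3 to 5 genes were called with MMS and with MTX, with 3 of the 6 called without culture 2 of MMS, 3 of the 7 without culture 2 of MTX and 4 of the 7 without culture 2 of CM. With CPT 2 genes were called without culture 1 of CC, 1 without culture 2 of CC or of CPT, and 0 where CC and CPT were fitted alone.

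Most of the genes that rose with these agents were of low level. The 5 genes under 100 CPM per kilobase in the vehicles, a limit set after the values were seen, all rose with MMS and with MTX, and 4 of the 5 rose with CPT; PRE5 stood at 0.45 with CPT. Of the 29 others 1, 0 and 2 rose. The medians of the 5 were 0.73, 0.69 and 0.77, and those of the 29 were 0.16, 0.17 and 0.03, for MMS, CPT and MTX. With HU the 5 had a median of 0.43 and the 29 of 0.09, and none was called. AD had the opposite order, with 0 of the 5 and 8 of the 29 risen and medians of 0.21 and 0.40. Over all genes of at least 10 CPM, those under 50 CPM per kilobase had medians of 0.05, 0.10 and 0.10 with MMS, CPT and MTX (n = 1987), and those over 400 of -0.02, -0.14 and -0.18 (n = 380). Spearman's rho between level and response over the 34 genes was -0.35, -0.52 and -0.64, and over those 5384 genes -0.16, -0.29 and -0.24, as a description, since the vehicle level enters both. Coding length and GC content of the coding region were related to the responses of the 5384 genes with a rho between -0.11 and 0.10 in the 6 comparisons with vehicle. Over the 34 genes the rho with coding length was -0.56 with HU, -0.27 with MMS, -0.22 with CPT, -0.13 with AD, -0.12 with DOX and -0.52 with MTX. That with GC content was 0.54 with AD and between -0.02 and 0.20 with the others. The part of level, length and GC content in these calls was not tested further.

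**Figure D4:**
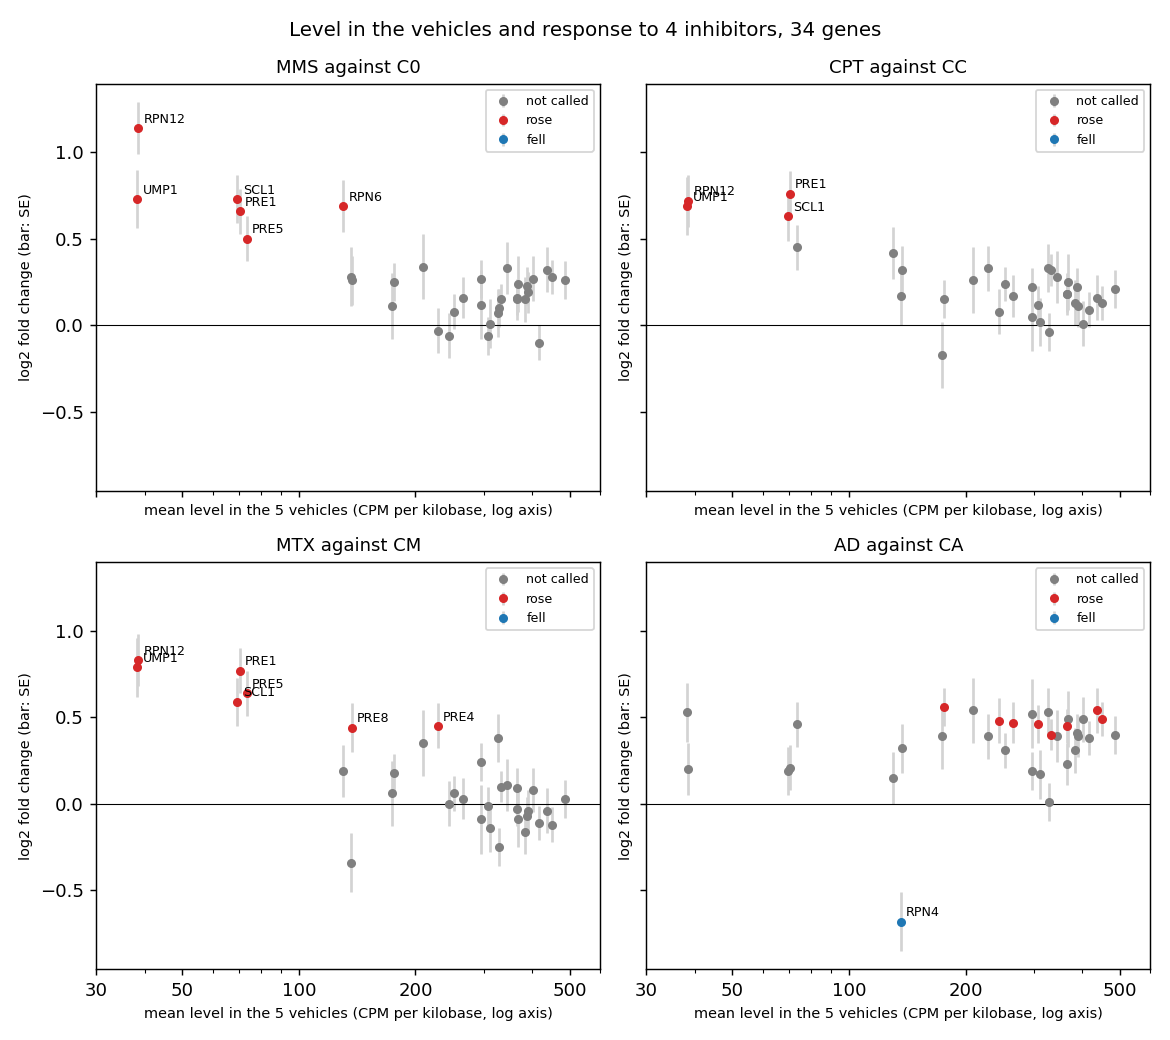
Log2 fold change (vertical axes, bars are SE) against the mean level in the 5 vehicles in CPM per kilobase (horizontal log axes) for the 34 genes with MMS, CPT, MTX and AD, red where the gene rose and blue where it fell. With MMS, CPT and MTX the red points lie under 100 CPM per kilobase, apart from RPN6 with MMS and PRE8 and PRE4 with MTX, and with AD they lie above 100 CPM per kilobase.

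With HU none of the 34 genes was called in the edgeR test, beside 2.63% of all genes that rose and 0.93% that fell. The unadjusted p was under 0.05 for 5 genes, and DESeq2 called 1. The largest value was that of RPN12, at 29.8 and 35.9 CPM in C0 and 39.7 and 50.6 CPM in HU (0.46), followed by SCL1 and PRE5 (both 0.43) and UMP1 (0.37, SE 0.17). Compared directly, MMS stood above HU for RPN12 (0.68, SE 0.15; edgeR adjusted p = 0.0121), 1 of the 34 genes, beside 4.52% of all genes that differed. That call was lost without culture 1 of HU or without either MMS culture. Between the responses to MMS and CPT none of the 34 differed in the edgeR test, none had an unadjusted p under 0.05 and DESeq2 called 0, beside 2.14% of all genes. The differences ran from -0.36 to 0.42, the latter for RPN12 (SE 0.21), and PRE1 stood at -0.10 (SE 0.18). The difference for PRE1 is smaller than its SE and that for RPN12 is not, and neither passed the test.

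DOX and MTX, both in SC, gave different patterns. The test of the difference called 18 of the 34 genes, all higher with DOX, beside 21.3% of all genes in either direction, and 13 to 17 without any 1 culture. Of the 18 subunits of the regulatory particle 13 differed, and of the 14 of the core 5. RPN1 differed by 1.40 (SE 0.13; edgeR adjusted p = 5.62e-06), RPN2 by 1.22 (SE 0.19), PRE7 by 1.20 (SE 0.18), RPT5 by 1.00 (SE 0.15), PRE2 by 0.93 (SE 0.14) and RPT4 by 0.87 (SE 0.28). RPN9, RPT3, PUP1, RPN7, PRE10, RPN8, RPT6, RPT1, RPN3, RPN6, PUP2 and RPN5 differed by 0.84 to 0.54. The low-level genes did not pass this test, and their differences were 0.38 (SE 0.20) for SCL1, 0.18 (SE 0.18) for PRE5, 0.07 (SE 0.18) for PRE1, 0.43 (SE 0.24) for UMP1 and under 0.01 for RPN12. PUP3, RPN11 and RPN13, which DOX did not raise, stood at 0.03, -0.14 and -0.25 with MTX. AD and MTX differed in 2 subunits, PRE2 (0.61, SE 0.14; edgeR adjusted p = 0.0161) and RPN3 (0.49, SE 0.14; edgeR adjusted p = 0.0449), beside 8.29% of all genes, with 0 called without culture 2 of AD, culture 1 of CM or culture 2 of MTX, 1 without either CA culture, culture 1 of AD or culture 2 of CM, and 3 without culture 1 of MTX.

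**Figure D5:**
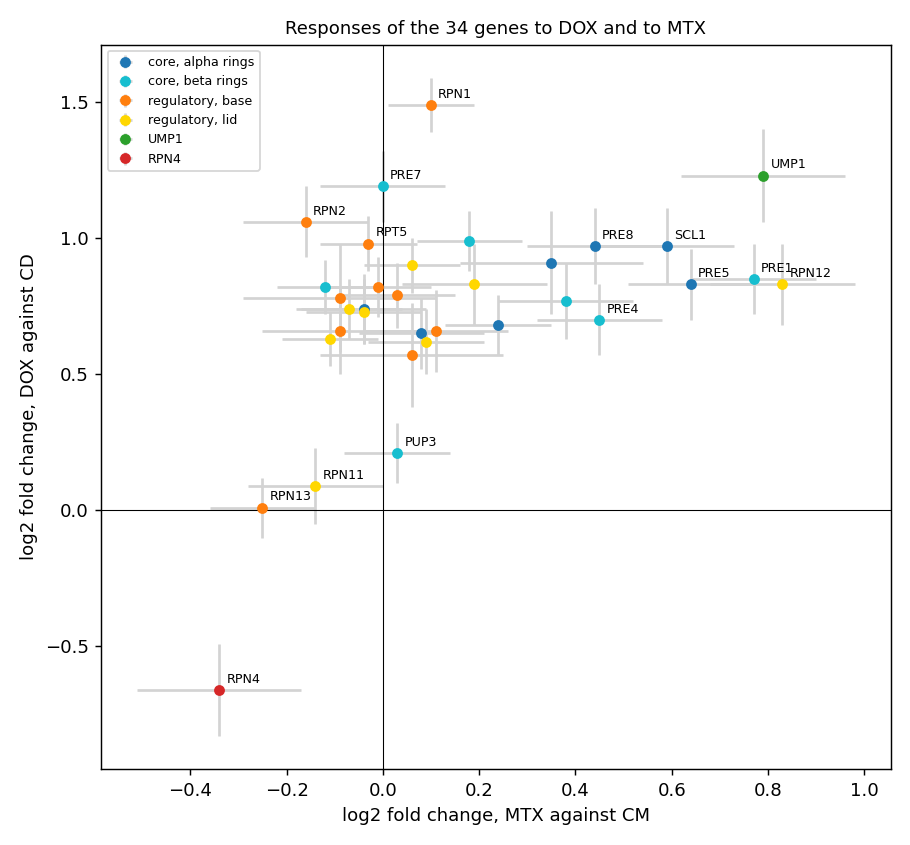
Log2 fold change with DOX (vertical axis) against that with MTX (horizontal axis), both against their own vehicle, with SE bars, by particle. Most base and lid subunits stand near 0 with MTX and above 0.5 with DOX, while RPN12, UMP1, PRE1, SCL1 and PRE5 are high in both.

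Few of the genes differed between media or vehicles. Of CD against C0, which are both water but in SC and YEPD, 3 of the 34 were called, beside 20.1% of all genes. RPT1 (YKL145W) was higher in SC, with 622 and 658 CPM against 467 and 412 CPM (0.54, SE 0.16; edgeR adjusted p = 0.0281). PUP1 was lower, with 133 and 129 against 166 and 165 CPM (-0.33, SE 0.11; edgeR adjusted p = 0.0397), and so was RPN4, with 200 and 183 against 327 and 225 CPM (-0.53, SE 0.17; edgeR adjusted p = 0.0404). Without either CD culture 0 of the 34 were called and without either C0 culture 1, and the RPN4 difference was -0.23 without culture 1 of C0. The feature YKL145W-A overlaps 93 bases of RPT1, and how its reads were shared is not known beyond the counting options. CC against C0 gave 0 of 34 calls, beside 0.221% of all genes, with an unadjusted p under 0.05 for 2. CA against CD and CM against CD gave 0 calls, with an unadjusted p under 0.05 for 1 gene each, SCL1 (0.42 and 0.45 higher than in CD), beside 0.0% and 0.0% of all genes; DESeq2 also called 0 in these 3.

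The authors' deposited tables of DESeq2 results, made for each inhibitor against its vehicle, had more calls at an adjusted p under 0.05. In the authors' deposited tables the number of the 34 genes that were higher was 5 with HU, beside 9.19% of all genes with an adjusted p. It was 14 with MMS beside 15.6%, 7 with CPT beside 6.75%, and 23 with AD beside 9.94%. With DOX it was 31 beside 29.8%, and with MTX 9 beside 20.6%. RPN4 was lower in the authors' deposited tables with AD (-0.68), DOX (-0.66) and MTX (-0.32). The authors' deposited tables had 1 member lower with AD, beside 513 of 6107 genes with an adjusted p, and 1 with DOX, beside 1942 of 6486. With MTX 2 members were lower, RPN4 and RPN13, beside 1152 of 6482 genes.

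Among genes that work with the proteasome, a list of 14 cofactors holds assembly chaperones, proteins that bind the particle and the lid gene SEM1. With DOX 7 of the 14 rose and 2 fell, with a median of 0.39, beside 21.0% of all genes tested that rose and 20.2% that fell. SEM1 stood at 0.02 (SE 0.15) with DOX and was not called. ECM29, which ties the regulatory to the core particle, rose by 1.54 (SE 0.14). UBP6, the deubiquitinase bound to Rpn1, rose by 1.05 (SE 0.12) and NAS6, a chaperone of the base, by 0.80 (SE 0.16). The 2 that fell were RPN14 (-0.52, SE 0.18) and IRC25 (-0.46, SE 0.17). Of 16 genes of ubiquitin and its delivery 11 rose and 1 fell with DOX, with a median of 0.79. UBA1, the ubiquitin-activating enzyme, rose by 1.90 (SE 0.16; edgeR adjusted p = 6.32e-07), CDC48, the ATPase that extracts ubiquitinated proteins, by 1.05 (SE 0.10) and DSK2, a shuttle of ubiquitinated proteins, by 0.90 (SE 0.12). With AD, where 2.02% of all genes rose, 0 cofactors and 3 ubiquitin genes rose, namely CDC48 (0.52, SE 0.10), UBA1 (0.80, SE 0.16) and DSK2 (0.55, SE 0.12). PBA1, a chaperone of the alpha ring, rose with MMS (0.52, SE 0.15), CPT (0.67, SE 0.15) and MTX (0.68, SE 0.15), and ECM29 with MMS (0.53) and CPT (0.61), while NAS2, a chaperone of the base, fell with MMS (-0.68, SE 0.17). UBC4, a ubiquitin-conjugating enzyme, rose with MMS (0.57), CPT (0.51) and MTX (0.44), CDC48 rose with MMS (0.45), DSK2 with CPT (0.49) and MTX (0.35), and UBC5, close to Ubc4, with MTX (1.37). In HU none of either list was called, beside 2.63% of all genes that rose and 0.93% that fell. The unadjusted edgeR p was under 0.05 for 2 of the cofactors and 4 of the ubiquitin genes, beside 1018 of the 6344 genes tested.

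Of 7 genes that control Rpn4, PDR3 (1.13, SE 0.19) and YAP1 (0.48, SE 0.13) rose and MUB1 (-1.21, SE 0.13) fell with DOX. Pdr3 and Yap1 are activators known to bind the RPN4 promoter, and Mub1 is a partner of the ligase Ubr2 that ubiquitinates Rpn4. MUB1 also fell with MTX (-0.71, SE 0.13), YAP1 rose with CPT (0.53, SE 0.13), and none of the 7 was called with HU, MMS or AD. Of 7 targets of Yap1, FLR1 (1.91, SE 0.19), TRX2 (1.70, SE 0.26) and TRR1 (0.35, SE 0.11) were among the 4 that rose with DOX; AHP1 rose with MMS (0.87), CPT (1.25) and MTX (1.14), and TRX2 with MTX (0.80). Of 4 targets of Pdr1 and Pdr3, SNQ2 (0.60) and PDR5 (0.64) rose and YOR1 (-0.54) fell with DOX, and SNQ2 rose with MTX (0.66). Of 8 targets of the heat shock factor Hsf1, HSC82 (0.54), SSA1 (0.81) and HSP82 (0.94) rose and 1 fell with DOX. The log2 fold changes of the 8 with DOX ran from -1.85 to 0.94, with a median of 0.21 and 4 above 0. With MTX 5 of the 8 fell, among them HSC82 (-0.48), FES1 (-0.98) and BTN2 (-2.22). Beside these small lists, 21.0% of all genes tested rose and 20.2% fell with DOX, and 10.8% rose and 9.0% fell with MTX. Of 16 glucose-repressed genes, a list set beside these as a sign of the carbon state of the culture, 4 rose and 4 fell with DOX, those with the smallest p being MLS1 (1.36), MDH2 (-2.02) and CAT2 (1.17), and these counts are near the 21.0% and 20.2% of all genes. In that list 4 rose with MTX, with MDH2 (1.75), SFC1 (2.10) and PCK1 (0.92) at the smallest p, PCK1 rose with CPT (0.88) and FBP1 fell with AD (-1.39). Their part in the proteasome results was not tested.

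The subunits followed each other across the 22 cultures once the mean of each set of cultures with a common vehicle was taken out. Pearson's r of a subunit with the median of the other subunits ran from 0.65 (RPN12) to 0.97 (RPT6) for 30 of the 32, and was 0.40 for RPN11 and 0.13 for RPN13. UMP1 had an r of 0.83 and RPN4 of -0.62. Without the 4 cultures of CD and DOX the same 30 subunits had an r from 0.46 (RPN3, from 0.80) to 0.92, with RPN12 and PRE4 at 0.55 and RPN10 at 0.57, so that the likeness of some rests partly on DOX. The 8 genes outside the set that were most like the median of the 32 were GET3 (0.96), CDC48 (0.95), NIT3 (0.95), SGT2 (0.94), EMC2 (0.93), AHC2 (0.93), POB3 (0.93) and GSH2 (0.93). Without those 4 cultures these 8 had an r between 0.81 and 0.89, and RPN4 of -0.39. The values describe 18 or 22 cultures that share vehicles and are given without a test. GET3, which inserts tail-anchored proteins into membranes, rose by 1.07 (SE 0.10) with DOX and 0.60 (SE 0.10) with AD. These rises of GET3 belong to the values by which it was chosen. CDC48, SGT2 and AHC2 also hold the PACE letters, which were in 1.19% of all windows searched.

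Genes beside the 34 moved in both directions. Of 60 tested neighbours of the 31 genes called with DOX 26 were called, 15 in the direction of the gene beside them and 11 in the other, where 21.0% and 20.2% of all genes rose and fell. Those in the same direction were MPO1, YOL038C-A, OST1, TIR1, AVT3, RPC25, SXM1, VMA16, NBL1, YDL096C, YPR108W-A, GPN2, BNA7 and YBR174C, and OSH2 beside RPN4. Those in the other were ENO1, TGL3, PET123, FHL1, PTC1, SHE9, HNT3, GPA2, SNU23, YFR052C-A and SMY2. With MMS, TIR1 rose by 5.72 beside PRE1, with 1822 bases between them. With MTX, ERG4 rose (0.91) beside SCL1, TGL3 fell (-0.50) beside PRE5 and YBR174C fell (-3.45) beside UMP1. Apart from RPT1, none of the 34 overlaps another feature, and none has a near-identical copy.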

How the data were processed

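RNA from 22 cultures was sequenced as 44 libraries. The deposited tables hold raw counts per feature and library. Per the file headers, the authors counted with featureCounts 1.6.0 on sacCer3 and set no strand option, so antisense reads cannot be told apart. Bowtie2 is named in the submitters' processing notes without a version, and the alignment names in the file headers include mskDup and non-redundant; no label explains these steps. The authors' deposited comparison tables hold DESeq2 log2 fold changes and adjusted p-values; no source used here says how technical replicates entered them. Of the feature lengths 96.6% are multiples of 3, and they are called coding lengths.

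Counts were summed per culture, filtered (edgeR 4.0.16, filterByExpr, minimum count 10, minimum total 15), scaled by TMM and fitted over all 22 cultures with 1 mean per group (robust quasi-likelihood test; common coefficient of variation 0.156). CPM use TMM-scaled totals; SE was computed from log2 fold change and F statistic (their ratio after taking the square root of F). The 15 comparisons are 6 inhibitors against vehicles, MMS against HU, 4 differences of responses and 4 of vehicles. P-values rest on 2 cultures per group, which the labels call biological replicates. The fit was tested on simulated counts. Alternatives were DESeq2 1.42.0, RLE scaling, no filter, a replicate block, the compared groups alone and each culture left out. Near-identical copies were looked for with BLAST 2.17.0 (95% identity over 30% of the length).

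In each comparison RPN4, UMP1 and every called member are named, with full values for up to 6; of each related list (72 genes in 7 lists) up to 3 called genes with the smallest p; called neighbours; and 8 genes most like the subunit median among those of at least 10 CPM. Members, lists and tests were chosen with earlier results of these data known. A CM library's description and title differ in the technical replicate number, and the title was followed.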

Additional observations from a re-analysis of the deposited data

Results flagged for a closer look

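The responses of 7 of the 34 genes to AD and to DOX differed in the edgeR test of the difference between the responses, all smaller with AD, beside 5.28% of all genes tested; RPN1 differed most, by -1.09 (SE 0.13). The responses to DOX and MTX differed in 18 of the 34, all larger with DOX, beside 21.3% of all genes, led by RPN1 at 1.40 (SE 0.13). The responses to AD and MTX differed in 2 of the 34, PRE2 and RPN3, a lower share than the 8.29% of all genes. The median difference between AD and MTX was 0.31 over the 34 genes, beside -0.01 over all genes. Of the 34, 18 had an unadjusted edgeR p under 0.05 there, beside 1608 of the 6344 genes. MMS and HU, which share the vehicle C0, differed in 1 of the 34, RPN12, at 0.68 (SE 0.15), a lower share than the 4.52% of all genes. No group had the 4 samples that a search for outlying cultures needs.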

How the results depend on the processing

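With DOX the number of the 34 genes called stayed at 31 under RLE scaling, without the filter, with DESeq2 and with CD and DOX alone. The PACE letters were in 27 genes with the 8-letter core too. That core only drops the last base, so a gene with another base changed could not gain a match. Fits of the compared groups alone, which have fewer cultures to set the spread, gave 0 with CPT, 0 with AD, 2 for MMS against HU, 1 for AD against DOX responses and 0 for AD against MTX. DESeq2 gave 1 with HU, 17 with AD, 2 for MMS against HU, 13 for AD against DOX, 5 for AD against MTX and 7 for CD against C0; RLE scaling gave 1 for AD against MTX. Without any 1 culture the count was 3 to 5 with MMS, 1 to 4 with CPT, 0 to 5 with AD, 28 to 30 with DOX, 3 to 5 with MTX, 0 to 1 for MMS against HU, 1 to 5 for AD against DOX, 0 to 3 for AD against MTX, 13 to 17 for DOX against MTX and 0 to 1 for CD against C0. A group left with 1 culture was assumed to vary like the other groups. The cause of the DESeq2 and RLE differences was not tested.

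The culture numbers give 2 pairs per comparison, and the same-numbered cultures deviated together with an r over genes between -0.24 (MTX and CM) and 0.71 (AD and CA), so they were not taken as pairs. With the replicate block the count was 2 with HU, 6 with MMS, 5 with CPT, 18 with AD, 31 with DOX, 8 with MTX, 2 for MMS against HU, 11 for AD against DOX, 7 for AD against MTX, 20 for DOX against MTX and 6 for CD against C0. With the numbers of MTX crossed, a choice made after seeing the data, the block gave 9 with MTX. No direction of a called gene turned under any alternative run. UMP1, at 14.8 to 40.5 CPM, is the member of lowest count, and 2 cultures per group limit all of these calls.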
